A study of Rattus norvegicus with 3 samples.

Results

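Neurotrophins and GDNF are secreted growth factors that act on neurons through receptors at the cell surface. This account covers 9 genes of the 2 families, which are 9 of the 26353 entries in the deposited table. The genes were found by their symbols, and each matched 1 entry. They are the ligand genes Bdnf, Ntf3 and Gdnf and the receptor genes Ntrk2, Ntrk3, Ngfr, Gfra1, Gfra2 and Ret (spelled RET in the table). The cells were commissural neurons of the spinal cord of rat (Rattus norvegicus) embryos of embryonic day 13, kept for 2 days in culture, and their polyadenylated RNA was sequenced. The 3 libraries, called libraries 1, 2 and 3 by the replicate numbers in the labels, form 1 group; no treatment, control group, strain or genotype is named in the labels. The labels do not tell whether the libraries stem from separate cultures or animals. P-values here therefore cover the spread among 3 samples that could be technical repeats.

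Commissural neurons send their axons across the ventral midline of the spinal cord. Among the neurotrophins, Bdnf binds mainly the receptor tyrosine kinase TrkB (gene Ntrk2) and neurotrophin 3 (gene Ntf3) mainly TrkC (gene Ntrk3), while Ngfr, a receptor without kinase activity, binds all neurotrophins and their uncleaved precursors. GDNF binds GFRalpha1 (gene Gfra1), which has no part inside the cell and signals with the kinase Ret or with the adhesion molecule Ncam1. GFRalpha2 (gene Gfra2) is the main receptor of neurturin, a relative of GDNF. In the mouse, GDNF of the floor plate is known to act on commissural axons through GFRalpha1 and Ncam1 at the midline.

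The deposited unit is FPKM, a fragment count divided by transcript length and by the mapped fragments of the library, so genes can be compared with each other per length, but isoforms of 1 gene, such as full-length and kinase-lacking TrkB, were not separated. Summed FPKM was 19897930 to 26236642 per library, nearly all of it in 56 entries with a mean above 10000 FPKM. Between libraries, log2 values correlated with a Pearson's r of 0.987 to 0.994 over 8069 described entries with a mean of at least 5 FPKM, which are genes and not independent replicates. FPKM gives no absolute depth. Olfactory receptor genes, whose coding sequences are short and similar in length, give an idea of what few fragments are worth: of 1126 such entries, 17, 12 and 15 were above 0 in libraries 1, 2 and 3, and of these 11, 10 and 14 stood between 0.04 and 0.07 FPKM. All 7 matched commissural markers lay above 1 FPKM, summing to 227 to 304 FPKM, as did 10 of 10 pan-neuronal and 7 of 7 radial glia markers. Of all entries tested, 63.7% lay above that level. RNA of the whole culture was measured; fewer cells of a type and less RNA per cell cannot be told apart, and which cells the RNA of each gene came from is not known.

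The 6 receptor genes were all expressed above 1 FPKM and the ligand genes were low. The receptors summed to 61.1, 61.5 and 64.5 FPKM in libraries 1, 2 and 3, and the 3 ligands to 1.97, 2.16 and 1.40 FPKM. In limma's one-sided test with Benjamini-Hochberg adjustment over all 17611 entries above 0 in at least 1 library, 7 of the 9 genes lay above 1 FPKM (the 6 receptors and Bdnf), against 63.7% of all entries tested. The other two, Ntf3 and Gdnf, lay below 1 FPKM, against 30.8% of all entries. With each library rescaled to a sum of 1000000 (TPM), most of which the 56 very high entries take, 0 of the 9 lay above a level of 1 in limma's test, 0 at an unadjusted p under 0.05, against 13.4% of all entries, and 8 lay below it, against 75.4% of all entries, so the position against 1 does not hold on the TPM scale.

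**Figure D1:**
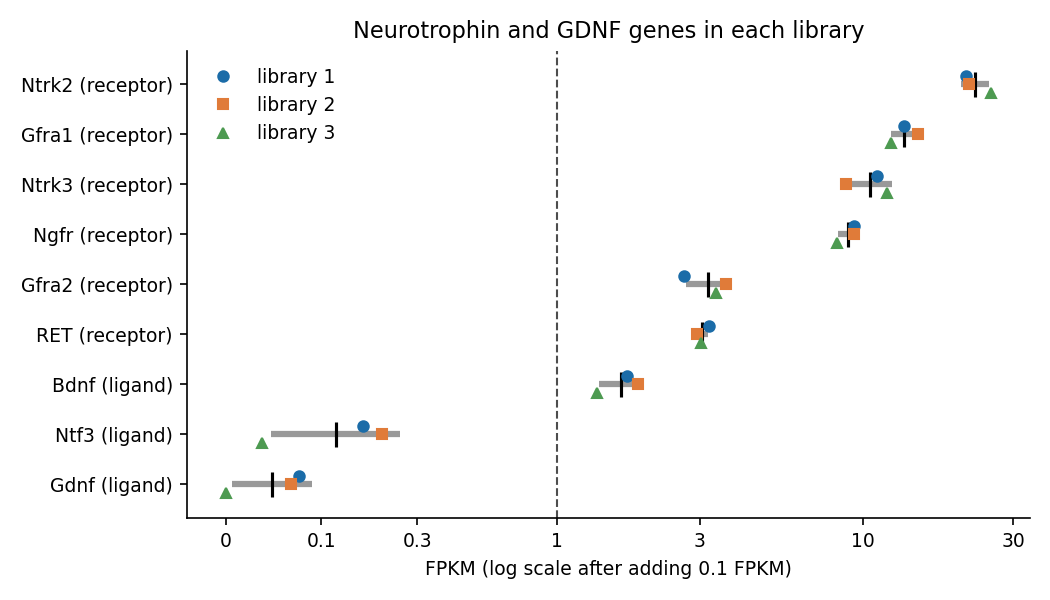
FPKM of the 9 genes in each library, on a log scale after 0.1 FPKM was added. Points are libraries, black ticks the mean and grey bars the mean ± SD of the log2 values (n = 3); the dashed line marks 1 FPKM, a position that holds on the deposited scale and not after rescaling to TPM. Every receptor point lies between 2.66 and 25.58 FPKM, and every point of Ntf3 and Gdnf at or under 0.21 FPKM.

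Of the receptors for neurotrophins, Ntrk2 (ENSRNOG00000018839) was the highest. It had 21.28, 21.66 and 25.58 FPKM in libraries 1, 2 and 3, a mean of 22.8 ± 2.38 FPKM (SD, n = 3; limma, Benjamini-Hochberg adjusted p of being above 1 FPKM = 4.65e-11). Its mean exceeded that of 79.6% of the entries tested, and no value of another of the 9 genes reached its lowest library. Ntrk3 (ENSRNOG00000018674) had 11.11, 8.82 and 11.95 FPKM, a mean of 10.6 ± 1.62 (limma, Benjamini-Hochberg adjusted p = 1.22e-09). Library 2 was the low one for Ntrk3, below the other two. Ngfr (ENSRNOG00000005392) had 9.36, 9.40 and 8.26 FPKM, a mean of 9.01 ± 0.647 (limma, Benjamini-Hochberg adjusted p = 4.16e-10). The ranges of Ntrk3 and Ngfr overlapped: Ntrk3 was higher in libraries 1 and 3, and Ngfr in library 2.

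Within each library, Ntrk2 made up 65.7%, 71.1% and 68.2% of the summed FPKM of Ntrk2 and Ntrk3. Pairs of the 9 genes were compared as ratios within each library, on log2(FPKM + 0.1), a scale that understates the ratio where a gene is low. In the planned test, limma was fitted to the ratios of all entries to 1 gene and adjusted over all those entries, and 33 of 36 pairs differed, against 88.3% of all ratios tested. That fit takes the spread of the shared gene as known from 3 values, which can make its p-values too small. The intervals and p-values printed for pairs therefore come from a test added after the data were seen, which summed both genes' variances from limma's fit of levels. That test leaves out how 2 genes vary together within a library. It called 33 of 36 pairs as well, against 90.2% of all ratios. It was not the stricter test for every pair. For Gfra1 over Ntrk3 its Benjamini-Hochberg adjusted p was 0.0109, against 0.0879 in the planned limma fit. The 36 pairs share genes and are not independent. Ntrk2 exceeded Ntrk3 by 2.15-fold (95% interval 1.80 to 2.57; added limma-based test, Benjamini-Hochberg adjusted p = 2.94e-07; 3 of 3 libraries). Ntrk2 exceeded Ngfr by 2.51-fold (2.15 to 2.94; added limma-based test, Benjamini-Hochberg adjusted p = 3.85e-09; 3 of 3 libraries). Ntrk3 over Ngfr was 1.17-fold (0.980 to 1.40), higher in 2 of 3 libraries: the planned limma fit called it (Benjamini-Hochberg adjusted p = 0.0332) and the added test did not (0.0842). The planned call was also lost without library 1 (0.229), without library 3 (0.576) and with Ntrk3 rather than Ngfr as the shared gene (0.282).

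Among the receptors for the GDNF family, Gfra1 (ENSRNOG00000017438) led with 13.51, 15.00 and 12.30 FPKM, a mean of 13.6 ± 1.35 (limma, Benjamini-Hochberg adjusted p = 1.50e-10). Gfra2 (ENSRNOG00000014010) had 2.66, 3.65 and 3.38 FPKM, a mean of 3.23 ± 0.512 (limma, Benjamini-Hochberg adjusted p = 9.18e-07). RET (ENSRNOG00000014751), the kinase that GFRalpha proteins present their ligands to, had 3.21, 2.94 and 3.03 FPKM, a mean of 3.06 ± 0.137 (limma, Benjamini-Hochberg adjusted p = 3.22e-07). Every library of Gfra1 was above every library of Gfra2 and RET, whose ranges overlapped.

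Gfra1 exceeded RET by 4.33-fold (95% interval 3.61 to 5.18; added limma-based test, Benjamini-Hochberg adjusted p = 9.19e-11; 3 of 3 libraries) and made up 80.8%, 83.6% and 80.2% of their summed FPKM in libraries 1, 2 and 3. It exceeded Gfra2 by 4.14-fold (3.37 to 5.08; added limma-based test, Benjamini-Hochberg adjusted p = 1.98e-09; 3 of 3 libraries). The log2 ratio of Gfra2 to RET was 0.06, with an interval of -0.25 to 0.38, and no difference was called (added limma-based test, Benjamini-Hochberg adjusted p = 0.679); RET was the higher of them in library 1 and Gfra2 in libraries 2 and 3. Ncam1, the adhesion molecule that can act with GFRalpha1 in place of Ret, had 199.56, 174.54 and 196.00 FPKM. Ncam1 exceeded Gfra1 by 13.9-fold (11.8 to 16.4) and RET by 60.1-fold (50.0 to 72.2), in 3 of 3 libraries each; these 2 pairs were chosen after the values were seen. Sdc3, a heparan sulfate proteoglycan that also binds GDNF, had 45.9 ± 2.67 FPKM.

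Ret and Gfra1 are known from motor neurons and sensory neurons as well. Of the motor neuron markers, limma's test put 0 of 5 matched genes above 1 FPKM, and 0 with an unadjusted p under 0.05. Over all entries tested, 63.7% lay above 1 FPKM, or 42.5% with entries at 0 in every library included. Each library had Mnx1 and Isl2 listed at 0, so these were not tested. Lhx3 was the highest at 0.543 ± 0.10 FPKM, and the list summed to 0.560 to 0.760 FPKM. Of the sensory ganglion and neural crest markers, 1 of 7 passed, Calca at 1.71 ± 0.282 FPKM, a call lost without library 2 (limma, Benjamini-Hochberg adjusted p = 0.0638). Foxs1 was listed at 0 and was not tested, and the list summed to 1.87 to 2.61 FPKM. Glial cells also use these receptors. The radial glia list summed to 952 to 1208 FPKM, from Fabp7 at 564 ± 106 to Nes at 3.15 ± 0.197 FPKM, and the astrocyte list, with 3 of 6 genes above 1 FPKM, to 35.8 to 37.5 FPKM, from Slc1a2 at 26.6 ± 1.64 down to Gfap at 0.0300 ± 0.0300 FPKM. The part of such cells in the levels of the 9 genes was not tested.

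Bdnf was the 1 ligand of the 3 above 1 FPKM. Bdnf (ENSRNOG00000047466) had 1.73, 1.89 and 1.37 FPKM, a mean of 1.66 ± 0.266 (limma, Benjamini-Hochberg adjusted p = 8.86e-04), and its call was lost without library 2 (0.0604). All 3 libraries of Bdnf lay below every library of every receptor. Ntrk2, the receptor gene for Bdnf, exceeded it by 13.1-fold (95% interval 10.4 to 16.4; added limma-based test, Benjamini-Hochberg adjusted p = 4.64e-11; 3 of 3 libraries).

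Ntf3 (ENSRNOG00000019716) had 0.17, 0.21 and 0.03 FPKM in libraries 1, 2 and 3. It lay below 1 FPKM (limma, Benjamini-Hochberg adjusted p = 7.25e-05), a call lost without library 1 (0.0580) and without library 2 (0.0942). Library 3 was the low one, at a value no higher than the lowest olfactory receptor entries above 0. A difference of Ntf3 between libraries was not tested. Ntrk3, the receptor gene for neurotrophin 3, exceeded Ntf3 by 48.0-fold (31.1 to 74.2; added limma-based test, Benjamini-Hochberg adjusted p = 1.64e-08; 3 of 3 libraries), a log2 ratio of 5.59 that became 6.50 with a pseudocount of 0.01 FPKM and 3.35 with 1 FPKM. Bdnf exceeded Ntf3 by 7.89-fold (5.04 to 12.4; added limma-based test, Benjamini-Hochberg adjusted p = 9.49e-07; 3 of 3 libraries), and this log2 ratio of 2.98 became 3.83 and 1.23 with those pseudocounts.

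Gdnf (ENSRNOG00000012819) was listed at 0.07, 0.06 and 0 FPKM, the lowest of the 9 genes in each library. It lay below 1 FPKM (limma, Benjamini-Hochberg adjusted p = 3.07e-06), a call lost without library 2 (0.0539). Gfra1 exceeded Gdnf by a log2 ratio of 6.61 (6.12 to 7.10), which became 8.47 with a pseudocount of 0.01 FPKM and 3.80 with 1 FPKM. No difference was called between Ntf3 and Gdnf (log2 ratio of Ntf3 to Gdnf 0.67, interval -0.05 to 1.38; added limma-based test, Benjamini-Hochberg adjusted p = 0.0816), with Ntf3 higher in 3 of 3 libraries; the planned fit called the pair without library 3 (limma, Benjamini-Hochberg adjusted p = 0.00641) and, narrowly, with a pseudocount of 1 FPKM (0.0481) or on TPM (0.0318). Floor plate cells, motor neurons and muscle are known sources of GDNF or neurotrophin 3 in embryos. Of the muscle markers, limma's test put 0 of 4 above 1 FPKM, and 0 with an unadjusted p under 0.05. The share was 63.7% of all entries tested, or 42.5% with entries at 0 in every library included. Myog and Actc1 were listed at 0 in each library and were not tested, and Des was the highest at 0.0567 ± 0.0115 FPKM. There was no list of floor plate markers. Whether such source cells bear on the levels of Ntf3 and Gdnf was not tested.

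**Figure D2:**
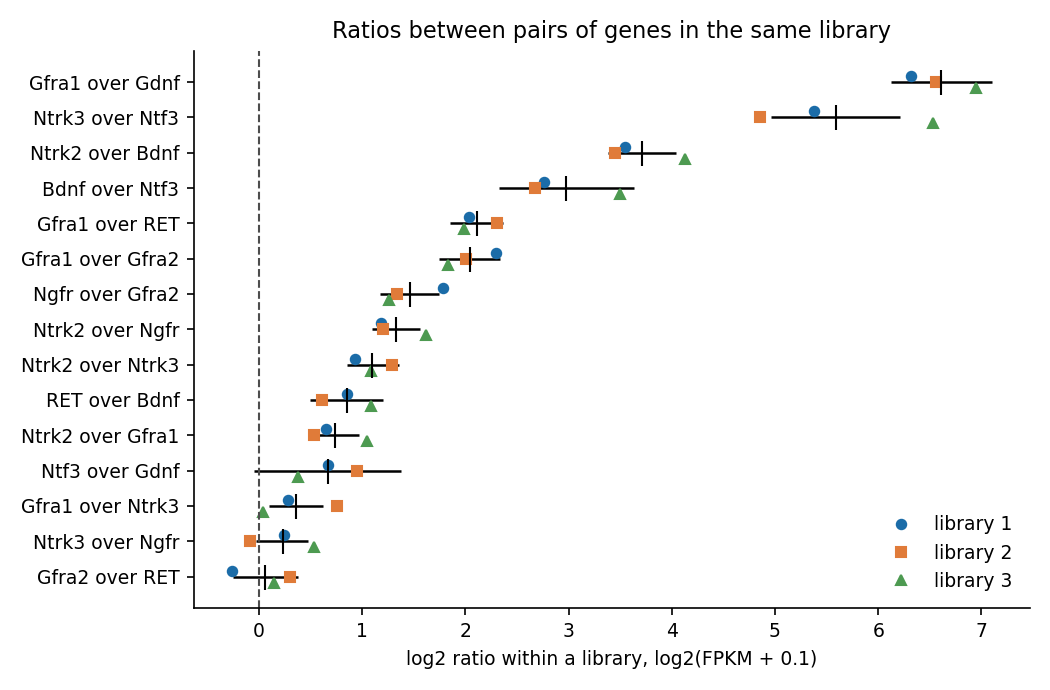
Log2 ratios between pairs of the 9 genes within each library, on log2(FPKM + 0.1). Points are libraries, ticks the mean of 3 and lines the 95% interval of the added limma-based test; the dashed line marks equal levels. The intervals of Gfra2 over RET (-0.25 to 0.38), Ntrk3 over Ngfr (-0.03 to 0.48) and Ntf3 over Gdnf (-0.05 to 1.38) reach across 0, and those of the other pairs shown do not.

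In order of mean level the genes were Ntrk2, Gfra1, Ntrk3, Ngfr, Gfra2, RET, Bdnf, Ntf3 and Gdnf. Of the 8 pairs of neighbours in this order, 5 differed in the planned fit and 5 in the added test, but not the same 5. Both tests called Ntrk2 over Gfra1 (1.67-fold, 1.43 to 1.96), Ngfr over Gfra2 (2.75-fold, 2.25 to 3.37), RET over Bdnf (1.81-fold, 1.42 to 2.30) and Bdnf over Ntf3. Gfra1 over Ntrk3 (1.28-fold, 1.07 to 1.54; 3 of 3 libraries) was called by the added limma-based test (Benjamini-Hochberg adjusted p = 0.0109) and not by the planned fit (0.0879), which did call it with Gfra1 rather than Ntrk3 as the shared gene (0.0304). Tests against a difference of at least 1.5-fold called 28 of the 36 pairs. Among neighbours they ended the calls of Ntrk2 over Gfra1 (limma, Benjamini-Hochberg adjusted p = 0.10) and RET over Bdnf (0.103), and the planned call of Ntrk3 over Ngfr. Over all 36 pairs, 34 kept the same order in every library; the exceptions were Ntrk3 with Ngfr and Gfra2 with RET.

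The spread between libraries was small for RET and larger for Ntrk3, Gfra2 and Bdnf. The coefficient of variation was 4.49% for RET, 7.18% for Ngfr, 9.94% for Gfra1 and 10.4% for Ntrk2, and 15.2% for Ntrk3, 15.8% for Gfra2 and 16.0% for Bdnf. On the log2 scale the SD of RET was 0.06, smaller than in all but 16.1% of 11662 entries with a mean of at least 1 FPKM, and that of Gfra2 was 0.23, larger than in 83.8% of them; the median SD of those entries was 0.13. The library that stood farthest from the other two was not the same for every gene: it was library 2 for Ntrk3, library 3 for Ntrk2 and Bdnf, and library 1 for Gfra2. The log2 deviation of library 2 from the mean of libraries 1 and 3 was -0.38 for Ntrk3, with a median of 0.13 over those entries, of which 5.30% deviated further down than Ntrk3. Robo3 and Dcc, guidance receptors of commissural axons, were also low in library 2. They had 118.21, 74.51 and 118.95 FPKM and 67.97, 48.10 and 71.64 FPKM in libraries 1, 2 and 3. Both were named after their values were seen. The matched commissural markers did not all go this way. The same deviation was -0.44 for Cntn2 and -0.14 for Lhx9, but 0.06 for Boc, 0.03 for Barhl1 and 0.25 for Barhl2. Nor were low values in library 2 confined to commissural markers. The deviation was -0.57 for Sorl1 and -0.40 for Plcg1, while it was 0.21 for Grb2. Whether the low value of Ntrk3 in library 2 has a shared source with those of Robo3 and Dcc was not tested.

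**Figure D3:**
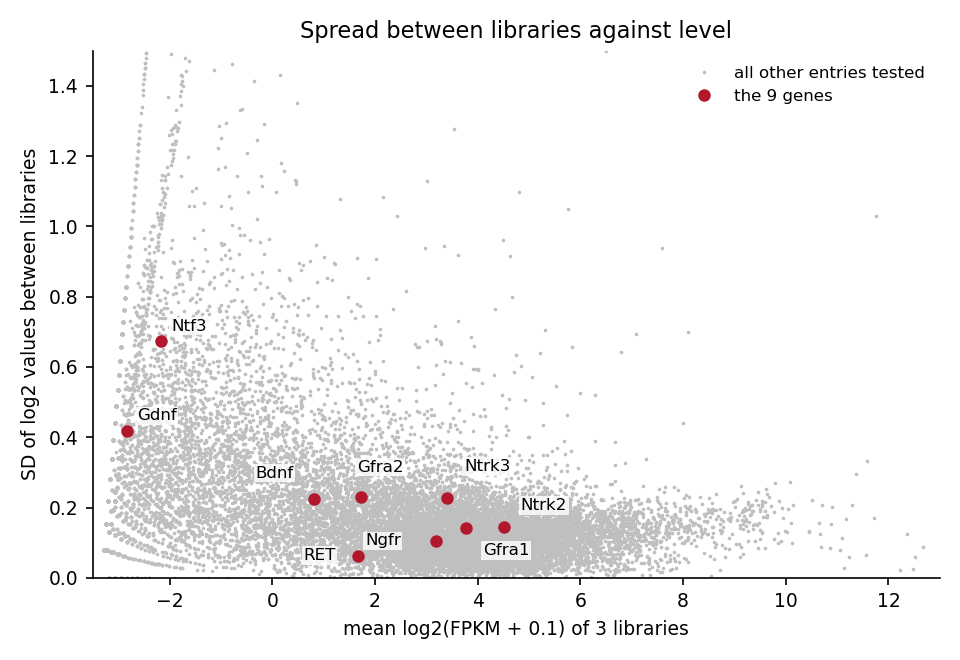
SD between the 3 libraries against the mean, both of log2(FPKM + 0.1), for the 17611 entries tested (174 lie outside the axes). Red points are the 9 genes: RET lies at an SD of 0.06, Ntrk3, Gfra2 and Bdnf at 0.23, and the lowly expressed Ntf3 and Gdnf at 0.67 and 0.42.

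The remaining ligands and receptors of the families were mostly low. Of 5 further ligands, 2 lay above 1 FPKM and 3 below it. Pspn, which encodes persephin, had 1.42, 2.49 and 1.43 FPKM (limma, Benjamini-Hochberg adjusted p = 0.00269), and its call was lost without library 1 (0.0686) and without library 3 (0.0646). It exceeded Gdnf by a log2 ratio of 3.70 (3.13 to 4.28), a pair chosen after the values were seen, whose ratio became 5.50 and 1.39 with pseudocounts of 0.01 and 1 FPKM. Gdf15, a distant relative of GDNF induced by stress, had 1.37, 1.68 and 1.10 FPKM and was lost without library 1 (limma, Benjamini-Hochberg adjusted p = 0.148) and without library 2 (0.149). Artn, which encodes artemin, had 0.223 ± 0.0208 FPKM; Nrtn, the gene for neurturin, was listed at 0.15, 0.14 and 0 FPKM, and Ntf4 at 0.08, 0 and 0. Of these low ligands, Ntf4 and Nrtn were no longer called below 1 FPKM without library 2 (limma, Benjamini-Hochberg adjusted p = 0.0607 and 0.109).

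The other GFRalpha receptors were low as well. Gfra3, the artemin receptor of sensory neurons, had 0.32, 0.26 and 0.12 FPKM, and Gfra4, the persephin receptor, 0.31, 0.30 and 0.80. Both lay below 1 FPKM (limma, Benjamini-Hochberg adjusted p = 1.32e-04 for Gfra3 and 0.00682 for Gfra4), calls lost without library 2 for each of them (0.118 for Gfra3 and 0.377 for Gfra4) and without library 1 for Gfra4 (0.270). Gfral, the receptor of Gdf15, was listed at 0 in each library and was not tested. Ncam1 and Sdc3 were the 2 of the 5 receptors and co-receptors on this list above 1 FPKM.

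Genes of many Ngfr partners were expressed in the same cultures, but whether in the same cells is not known. Of all entries tested, 63.7% lay above 1 FPKM. All 5 genes of the sortilin family, sorting receptors of which Sort1 forms a receptor with Ngfr for uncleaved neurotrophins, lay above 1 FPKM: Sort1 had 40.9 ± 1.45, Sorcs1 8.60 ± 0.163, Sorcs2 6.61 ± 0.197, Sorcs3 6.50 ± 0.760 and Sorl1 5.67 ± 1.23 FPKM. Sort1 exceeded Ngfr by 4.51-fold (3.89 to 5.22; 3 of 3 libraries), and Lingo1, which joins Ngfr in the receptor for myelin inhibitors, by 6.44-fold (5.52 to 7.51; 3 of 3 libraries), both pairs chosen after the values were seen. All 9 of 9 genes listed as partners or relatives of Ngfr passed. The highest were Maged1 at 260 ± 10.5, Bex3 (Ngfrap1 in the table) at 217 ± 21.0 and Arhgdia at 207 ± 17.8 FPKM. Traf6 (4.84 ± 0.322) and Tnfrsf19 (3.27 ± 0.275) were lowest.

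Of the proteases listed for a part, direct or indirect, in the processing of neurotrophin precursors, 5 of 7 passed. The call of Pcsk5 (1.28 ± 0.106 FPKM) was lost without library 1 (limma, Benjamini-Hochberg adjusted p = 0.0623) and without library 2 (0.0808). Pcsk5 was named for that, after its values were seen. Plat, tissue plasminogen activator, had 12.1 ± 0.979, Pcsk7 7.97 ± 0.344 and Furin 7.90 ± 0.443 FPKM; Mmp9 (0.993 ± 0.305) and Pcsk6 (0.987 ± 0.256) were neither above nor below 1 FPKM past the threshold. Of the adaptors and enzymes listed as acting at or below activated Trk or Ret, 18 of 19 passed. The highest were Grb2 at 71.8 ± 6.15, Plcg1 at 70.0 ± 10.6 and Ptpn11 at 36.6 ± 2.39 FPKM. The lowest were Shc4 at 2.24 ± 0.136 and Plcg2, the phospholipase of blood cells, at 0.443 ± 0.0643 FPKM. All 13 kinase cascade genes passed, from Akt1 at 85.2 ± 9.85, Map2k2 at 74.9 ± 5.82 and Pik3r1 at 50.8 ± 2.31 to Pik3cb at 5.40 ± 0.0493 and Mapk7 at 2.70 ± 0.0819 FPKM. Over all 8 lists, 64 of 75 genes lay above 1 FPKM, against 63.7% of all entries tested, and 7 below it, against 30.8%, with a median of 8.68 FPKM, against a median of 4.81 FPKM over all entries tested; on the TPM scale 18 of the 75 lay above 1, against 13.4% of all entries.

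**Figure D4:**
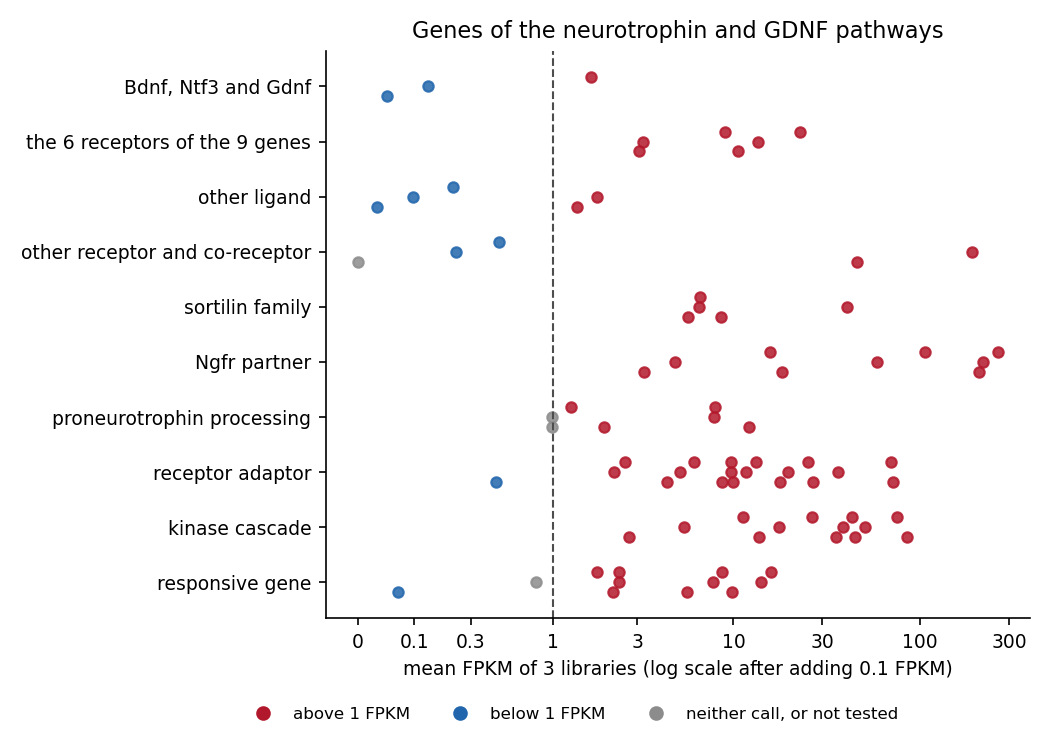
Mean FPKM of 3 libraries for the 9 genes and for the other genes of both pathways, by list, on a log scale after 0.1 FPKM was added. Each point is a gene, coloured by limma's call against 1 FPKM (dashed line), a level of the deposited scale that 18 and not 64 of the 75 other genes pass on the TPM scale. Most ligands lie to the left of 1 FPKM, and the sortilins, the listed partners or relatives of Ngfr and the kinase cascade genes to the right.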

How the data were processed

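Polyadenylated RNA of 3 libraries was sequenced. Per the submitters' processing notes, FastQC, Trimmomatic 0.22 and STAR were used with build rn6; which program computed FPKM, with which gene models, strand setting and handling of multi-mapping reads, is not given in the sources used here. FPKM values, 1 column per library, were deposited by the authors; they were used as deposited, and depth is unknown. From log2(FPKM + 0.1), limma 3.58.1 in R 4.3.3 (statmod 1.5.0; mean-variance trend, robust prior) tested levels against 1 FPKM, one-sided, and ratios within libraries, two-sided, with Benjamini-Hochberg adjustment over all 17611 entries above 0 in at least 1 library and a threshold of 0.05. With 3 libraries, an exact sign-flip test reaches p = 0.25 at best. Identical values between libraries made up 0.0744% to 0.297% of 8069 described entries, so no column was a copy of another. Each library counted as a sample, though these values cannot tell separate cultures from technical repeats. The 9 genes, the lists and the tests were chosen with earlier results of these data known. The text names the 9 genes, the other ligands, receptors and sortilins, and of each other pathway list the 3 highest and 2 lowest; of the marker lists, some are given only as counts. Some listed genes are not reported here and were left out of the lists and their counts. Lhx2 and Slc18a3 matched no symbol; Bex3 and Hras were matched by RefSeq synonyms (GRCr8, names only), and of 2 Mapk7 entries the higher was taken. Genes that share reads with a relative or an overlapping neighbour could be misjudged. Tests were run on simulated data in which genes varied independently, which cannot check the added test where genes vary together. Alternatives were other pseudocounts, filters, scalings, levels, priors and reference genes, a stricter ratio and each library left out; the test with summed variances and the restriction to described entries were added with the data in view. Matplotlib 3.10.9 drew the figures.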

Additional observations from a re-analysis of the deposited data

How the results depend on the processing

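Over 43 single genes and pairs, 530 of 570 values kept their direction and their side of the threshold, 21 were no longer past it, 5 were now past it and 14 changed direction. Rescaling to a sum of 1000000 (TPM) divided values by 19.9 to 26.2 and shifted the median of all entries by -3.99 (log2). It left 0 of the 9 genes above 1 (0 at an unadjusted p under 0.05 in limma) and 8 below, and 18 of the 75 other pathway genes above 1, against 13.4% of all entries above and 75.4% below. On that scale log2 levels over 1 turned to -0.04 for Ntrk2, -0.70 for Gfra1, -1.01 for Ntrk3, -1.19 for Ngfr, -2.21 for Gfra2, -2.26 for RET, -2.68 for Bdnf, -2.64 for Pspn, -2.79 for Gdf15, -1.71 for Sorl1, -1.24 for Sorcs1, -1.53 for Sorcs2 and -1.55 for Sorcs3. Above a level of 5 FPKM lay 4 of the 9 genes, against 46.5% of all entries, and below it 5, against 48.2%. Entries with a mean of at least 0.1 FPKM leave out Gdnf, so 1 of the 9 lay below 1 FPKM. With each library left out in turn, 6 to 7 genes lay above and 0 to 2 below 1 FPKM (without library 2, 0 below in limma, 2 at an unadjusted p under 0.05), 32 to 33 pairs differed, and 60 to 63 of the other pathway genes lay above. The log2 ratio of Gfra2 to RET was -0.05 to 0.23, turning negative without library 2. The other counts of genes and pairs stayed within 1.5 times of those reported. Depth limits what can be said of Ntf3, Gdnf, Ntf4 and Nrtn, whose values stand near those of a few fragments. No paired analysis was possible because there is 1 group of libraries.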

Other observations

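Genes known to respond to neurotrophin or GDNF signalling, and to other growth factors, were described by level alone, since no ligand was added according to the labels. Of 12 such genes, 10 passed the limma test against 1 FPKM (Benjamini-Hochberg adjusted), against 63.7% of all entries tested. Dusp6, a phosphatase that switches off ERK, had 15.9 ± 2.94 FPKM, Spry2, an inhibitor of receptor kinase signalling, 14.0 ± 2.17, and Etv5, a transcription factor that GDNF induces in other tissues, 9.88 ± 1.08 FPKM (SD, n = 3). Arc had 0.797 ± 0.0987 FPKM and was neither above nor below 1 FPKM past the threshold, and Npas4, an activity-dependent transcription factor, had 0.0633 ± 0.0351. Egr1, an immediate early gene, was the most uneven of those above 1 FPKM, with 1.92, 1.36 and 3.35 FPKM in libraries 1, 2 and 3; it was named after its values were seen, and its call was lost without library 1 (limma, Benjamini-Hochberg adjusted p = 0.111) and without library 2 (0.0694).

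Of the remaining marker lists, 0 of 6 oligodendrocyte lineage and 0 of 5 endothelial genes lay above 1 FPKM in limma's test, against 63.7% of all entries tested. At an unadjusted p under 0.05 it was 0 of either. Their highest members were Mbp at 0.743 ± 0.232 and Pecam1 at 0.253 ± 0.0551 FPKM. The fibroblast and meninges list passed in 1 of 6 genes, Col3a1 at 2.27 ± 0.512 FPKM, with Dcn listed at 0 and not tested. Among microglia and macrophage genes 2 of 6 passed, Aif1 at 6.76 ± 1.47 and Csf1r at 1.82 ± 0.569 FPKM, the Csf1r call lost without library 2 (limma, Benjamini-Hochberg adjusted p = 0.195) and without library 3 (0.129).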
